A study of Mus musculus with 6 samples.

Results

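Immediate early genes of the AP-1, Egr and NR4A families were followed in the left ventricle of obese mice given placebo or an agent that the labels name Lira without spelling it out. The set was chosen by gene symbol and holds 10 genes of the 18193 that have a probe set of their own on the array: Fos, Fosb, Jun, Junb, Jund, Egr1, Atf3, Ier2, Nr4a1 and Nr4a3. They are read by 14 probe sets, and 9 of the 10 were bright enough to be among the 12735 genes tested, with Fosb left out as too dim. All 6 animals were male C57BL/6 mice, 6 months old, fed a high fat diet for 16 weeks. 3 of them received placebo and 3 received Lira, and 1 array was hybridised per mouse. No lean or untreated mice were analysed here, so both groups share the diet. The design text counts 10 mice, of which 6 were analysed here.

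Immediate early genes are switched on within minutes of a stimulus, without new protein synthesis, through factors that already sit at their promoters, such as serum response factor and CREB. Fos and Jun proteins pair through leucine zippers to form AP-1, a dimer that binds DNA and whose makeup sets its strength. Egr1 is a zinc finger factor, and the NR4A proteins are orphan nuclear receptors that are regulated mainly by how much of them is made. In heart muscle these genes are known to respond to stretch, adrenergic drive, ischaemia and reperfusion, and also to the handling of tissue, so their transcripts are short-lived readings of the time around sampling.

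The cardiac origin of the RNA was checked on markers. The summed signal of 7 cardiomyocyte genes was 172054 to 181367 units on the placebo arrays and 172593 to 215198 on the Lira arrays, where a unit is 1 step of the authors' linear signal scale. The extraction text mentions blood, and the 2 erythrocyte markers of 4 that could be read summed to at most 68.5 units on any array. The ratio of the 3′ to the 5′ probe set, a measure of RNA integrity, was 0.781 to 0.830 for Gapdh and 1.55 to 1.74 for Actb, with overlapping groups for both. Summed fibroblast markers were 9679 to 10607 with placebo and 10660 to 12711 with Lira, and smooth muscle and pericyte markers 9228 to 10379 and 10655 to 12074, so these sums were higher on every Lira array. Single markers did not all follow: 2 of the 6 fibroblast markers (Col1a1 and Col1a2) and 2 of the 5 smooth muscle and pericyte markers (Tagln and Pdgfrb) had lower means with Lira. The bright genes weigh most in the sums, with means of 6790 and 7976 for Dcn, 7636 and 8058 for Rgs5, and 1196 and 2158 for Acta2, which stood at 3377 in Lira replicate 1. Macrophage marker sums were 2051 to 2212 and 2197 to 2542, with all 6 markers higher in mean. All 7 cardiomyocyte markers were also higher in mean with Lira. The part of these cells in the values below was not tested, and in bulk tissue fewer cells of a type and less RNA per cell cannot be told apart.

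The question put to the members was whether Lira changed their transcripts in the obese heart. With Lira, 8 of the 9 tested members had a lower mean and Egr1 a higher one, where 48.0% of all genes tested were lower. The median log2 difference, Lira minus placebo on the log2(signal + 16) scale, was -0.20 over the 9 members and 0.01 over all genes tested. None of the members passed an adjusted p of 0.05 in limma with Benjamini-Hochberg adjustment over all genes, against 0.0550% of all genes (7 genes). At an unadjusted p under 0.05 there was 1 member, Nr4a1, where 6.00% of genes met the same rule. The groups overlapped in all 9 tested members, and they did not overlap in 11.4% of genes. After adjustment over all genes no member was thus told apart from the spread between mice, which does not show that there was no difference. The direction shared by 8 of them is a description, as the members were chosen with earlier results of these data known. Of the 8, Junb stood at only -0.003, Jun at -0.02 and Ier2 at -0.03. Junb turned positive with median centring, with array weights and with a larger constant before the log. With single arrays left out 6 to 8 of the 9 were lower, and Junb, Ier2 and Jun were those that changed sign.

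**Figure D1:**
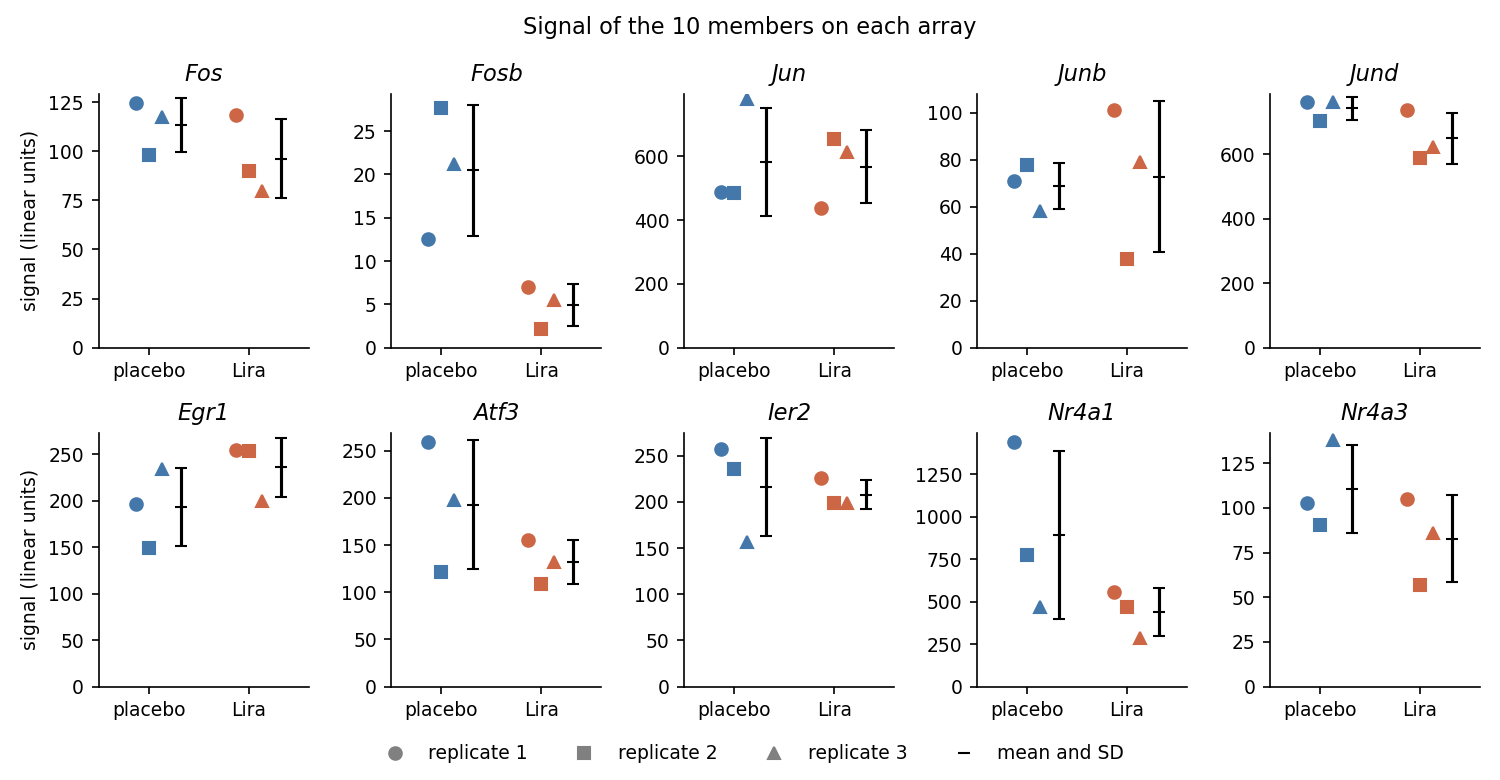
Signal in linear units on each array for the 10 members, with placebo in blue, Lira in orange, a marker shape per replicate number, and the mean with its SD in black. The labels do not say whether replicate numbers pair mice. The groups are apart in Fosb, whose highest signal is 27.7 units, and overlap in the other 9 genes. Groups are apart in 10.7% of all genes without the filter.

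Promoter sequence is shown for Fos, Nr4a1 and Nr4a3 because these genes carry the best known cyclic AMP and calcium input of the set, through sites for CREB. The RefSeq table on GRCm38.p6 held a window from 250 bases before to 50 bases after the start for 8 members, while Egr1 and Ier2 are named only. The core TGACG of the CREB site, searched on both strands, was found in 6 of these 8 windows, those of Fos, Fosb, Junb, Atf3, Nr4a1 and Nr4a3, and in 20.8% of the 32851 windows of the same length. The share of G and C was 58.67% to 72.33% in these 6 windows, 60.0% in Jun and 46.67% in Jund, with a median of 52.67% over all windows. No comparison with windows of like G and C content was made, for this or the other sites. Each gene has 2 or more copies below, in capitals as TGACG or, on the other strand, CGTCA, and the 250 bases before the start are printed 5′ to 3′ along the gene. Fos lies at chr12:85473640-85473889, Nr4a1 at chr15:101266596-101266845 and Nr4a3 at chr4:48045055-48045304, all on the plus strand.
Fos: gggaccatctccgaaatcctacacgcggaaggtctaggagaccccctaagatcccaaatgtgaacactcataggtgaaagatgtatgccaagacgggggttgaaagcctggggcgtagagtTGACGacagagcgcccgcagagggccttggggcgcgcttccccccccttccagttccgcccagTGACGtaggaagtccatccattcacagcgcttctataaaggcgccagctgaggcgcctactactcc
Nr4a1: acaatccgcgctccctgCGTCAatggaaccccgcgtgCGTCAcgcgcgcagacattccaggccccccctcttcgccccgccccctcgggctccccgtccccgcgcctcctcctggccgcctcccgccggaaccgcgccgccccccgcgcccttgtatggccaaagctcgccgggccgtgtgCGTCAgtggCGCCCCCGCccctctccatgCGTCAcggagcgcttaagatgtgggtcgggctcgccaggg
Nr4a3: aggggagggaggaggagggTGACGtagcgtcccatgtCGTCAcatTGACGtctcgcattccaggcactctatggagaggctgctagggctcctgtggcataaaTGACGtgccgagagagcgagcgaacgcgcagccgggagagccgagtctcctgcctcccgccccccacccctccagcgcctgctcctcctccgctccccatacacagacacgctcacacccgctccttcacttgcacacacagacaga
The copies begin at -129 and -66 from the start in Fos, at -233, -213, -69 and -40 in Nr4a1, and at -231, -213, -205 and -147 in Nr4a3. The longer run in capitals in Nr4a1 is an EGR site, CGCCCCCGC, from -60 to -52. EGR sites (GCGTGGGCG or GCGGGGGCG, both strands) were found in the windows of Nr4a1 and Fosb and in 3.47% of all windows. The full palindrome TGACGTCA, which holds the core, was in 0 of the 8 windows and 1.79% of all. The AP-1 site (TGAGTCA or its complement TGACTCA) was in 0 of 8 and 5.2% of all, the CArG box of serum response factor in 0 of 8 and 1.63%, and the NR4A site AAAGGTCA in 0 of 8 and 1.51%. A match is a run of letters in this short window and says nothing of binding.

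Fos encodes the partner that joins Jun in the classical AP-1 dimer. Its signal was 124, 98.2 and 117 units in placebo replicates 1 to 3 and 119, 90.2 and 79.6 in Lira replicates 1 to 3. Lira replicate 1 lay among the placebo mice and the other Lira mice lay below all of them. The means were 113 ± 13.6 and 96.1 ± 20.2 (SD, n = 3 per group), and the log2 difference was -0.22 ± 0.18 (SE), with a 95% interval from -0.60 to 0.17 and an adjusted p of 0.90. Without Lira replicate 1 the groups of Fos did not overlap, as in 20.4% of all genes tested, and the difference was -0.35. Without Lira replicate 3 it was -0.11.

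Fosb encodes a Fos relative whose induction is usually slower to fade. Its one probe set gave 12.6, 27.7 and 21.2 units with placebo and 6.95, 2.19 and 5.55 with Lira. Every Lira value lay below every placebo value, and groups did not overlap, in either direction, in 10.7% of all genes without the filter. All 6 values lay in the dim range, with a mean of 12.7 that exceeded 16.3% of genes. No detection calls were at hand, so signals of this size could not be told from background. In a fit of all 18193 genes without the filter the log2 difference was -0.79 ± 0.26, with an unadjusted p of 0.012 and an adjusted p of 0.78 in limma. In that fit 5.40% of genes had an unadjusted p under 0.05. The size follows the constant added before the log, with -1.45 at a constant of 4 and -0.29 at 64.

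Jun encodes the partner that can also pair with itself, and its level is known to rise through its own product. Its brighter probe set measured 487, 485 and 778 units with placebo and 438, 653 and 612 with Lira. The highest mouse was in the placebo group and the lowest in the Lira group, with the rest interleaved. The log2 difference was -0.02 ± 0.18, with an interval from -0.42 to 0.37. The second probe set of Jun gave 327, 304 and 427 with placebo and 254, 385 and 393 with Lira, a difference of -0.04, and followed the first across arrays (r = 0.94). Without placebo replicate 3 the difference was 0.20 and without Lira replicate 1 it was 0.15, so its sign rested on single mice.

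Junb encodes a Jun relative that often restrains Jun. Its signal was 70.8, 77.5 and 58.3 units with placebo, and 101, 37.8 and 79.1 with Lira. The Lira mice held both the highest and the lowest value, with an SD of 32.1 against 9.76 with placebo. The log2 difference was -0.003 ± 0.27, with an interval from -0.58 to 0.57, and it became 0.32 without Lira replicate 2. Jund encodes the member of the family that is made steadily in resting cells. It measured 764, 703 and 764 with placebo and 739, 588 and 623 with Lira. Lira replicate 1 was within the placebo range and the other Lira mice were below it, as in Fos. The difference was -0.20 ± 0.11 (interval -0.43 to 0.04, adjusted p = 0.86), and -0.13 without Lira replicate 2. A second, dim probe set of Jund gave -0.22 with signals from 8.92 to 28.8, and it did not follow the first across arrays (r = 0.07).

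Atf3 encodes a stress-induced factor of the same leucine zipper class that can pair with Jun. Its signal was 259, 122 and 198 units with placebo and 155, 109 and 132 with Lira. Placebo replicate 2 lay within the Lira range, and the other placebo mice were above it. The means were 193 ± 68.7 and 132 ± 23.1, and the log2 difference was -0.45 ± 0.22, with an interval from -0.93 to 0.02, an unadjusted p of 0.058 and an adjusted p of 0.83. Without placebo replicate 2 the groups of Atf3 did not overlap, as in 20.1% of all genes, and the difference was -0.73, with an adjusted p of 0.56, the lowest in its alternatives. Without placebo replicate 1 it was -0.23.

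Egr1, the zinc finger factor, was the 1 tested member with a higher mean in the Lira group. It measured 196, 149.5 and 234 units with placebo and 255, 254 and 199.5 with Lira. Lira replicate 3 lay within the placebo range, and the other Lira mice were above it. The log2 difference was 0.28 ± 0.16, with an interval from -0.07 to 0.63 and an adjusted p of 0.86, and it stayed positive with each array left out, from 0.12 without placebo replicate 2 to 0.42 without placebo replicate 3. Ier2, a short nuclear protein induced together with Fos in many cells, measured 258, 235 and 157 with placebo, and 226, 199 and 199 with Lira. All 3 Lira mice lay inside the placebo range, and the difference was -0.03 ± 0.17 (interval -0.39 to 0.33).

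Nr4a1 encodes the orphan receptor Nur77, which takes part in metabolic and inflammatory gene control. It showed the widest differences of the tested members, with 1438, 772 and 466 units with placebo and 559, 471 and 284 with Lira. The highest 2 values were placebo mice and the lowest was a Lira mouse, while placebo replicate 3 lay below 2 of the Lira mice. The means were 892 ± 497 and 438 ± 140, a placebo level 1.87-fold that of Lira on the log2(signal + 16) scale. The log2 difference was -0.91 ± 0.31, with an interval from -1.58 to -0.23, an unadjusted p of 0.012 and an adjusted p of 0.66 in limma. In these 12735 genes 1.85% had a smaller p. Leaving out placebo replicate 1 brought the difference to -0.49, a change in size of more than 1.5 times. Leaving out Lira replicate 3 gave -0.63 and leaving out placebo replicate 3 gave -1.29, and the sign held with each array omitted. Its unadjusted p in limma moved both ways. It was 0.068 when the variance trend was dropped and 0.11 with a robust prior, and it was 0.071 and 0.081 when placebo replicate 1 or Lira replicate 3 was omitted. Lower values included 0.00105 with median centring, 4.2e-05 with the replicate number as a block and 3.6e-04 without placebo replicate 3. The adjusted p in these fits was 0.35, 0.060 and 0.38.

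Nr4a3 encodes the related receptor Nor1. Its brightest probe set measured 102, 90.7 and 138 units with placebo and 105, 56.9 and 85.9 with Lira. Lira replicate 1 lay within the placebo range and the other Lira mice below it. The difference was -0.37 ± 0.22 (interval -0.84 to 0.10, adjusted p = 0.86), and it was -0.17 without Lira replicate 2 and -0.22 without placebo replicate 3. The other probe sets of Nr4a3 did not repeat this pattern. The second gave 39.2, 51.8 and 39.8 with placebo and 37.8, 59.3 and 39.4 with Lira, a difference of 0.04, and it ran opposite to the first across arrays (r = -0.77). The third was at 3.25 to 4.66 with placebo and 0.677 to 1.99 with Lira, groups that do not overlap at signals too dim to tell from background. For Nr4a3 the direction therefore depends on the probe set read.

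**Figure D2:**
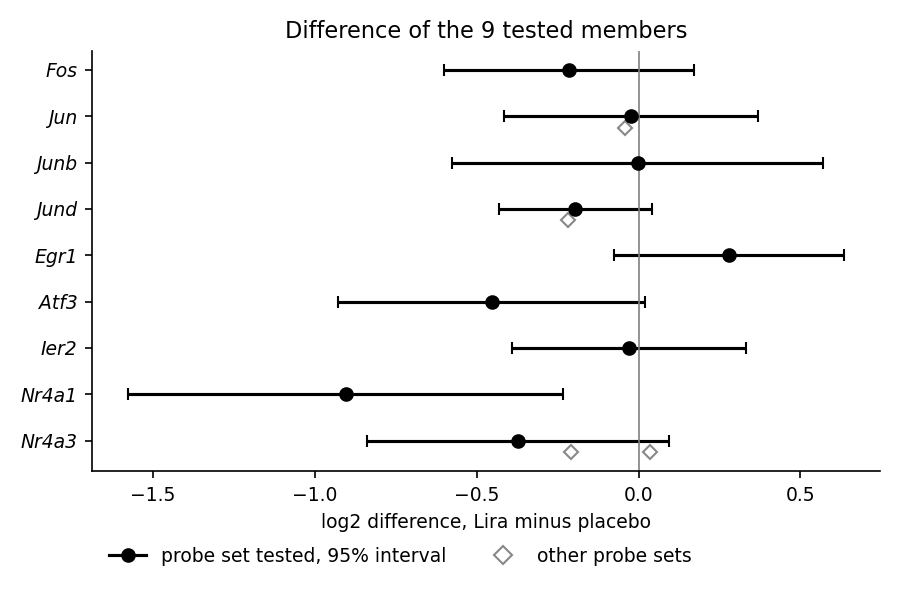
Log2 difference, Lira minus placebo, of the 9 tested members with the 95% interval of the moderated limma estimate, and of their other probe sets as open diamonds. The interval of Nr4a1 alone, from -1.58 to -0.23, lies on 1 side of 0, and its adjusted p over all genes is 0.66.

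Mice of the same group differed more in several of these genes than is usual for genes of like brightness. The SD within groups on the log2 scale was 0.66 for Nr4a1, 0.43 for Junb, 0.39 for Atf3, 0.34 for Jun and 0.33 for Nr4a3. It was 0.26 for Ier2, 0.25 for Egr1, 0.21 for Fos and 0.13 for Jund. Set beside the 500 genes nearest in mean, the SD of Nr4a1 exceeded 99.8% of them, that of Jun 98.8% and that of Atf3 97.0%. Fos and Jund, at 48.4% and 49.2%, were at the middle of their neighbours, and the median over the 9 members was 87.6%. With 4 residual degrees of freedom each SD is itself imprecise. The spread was not on the same array throughout. Placebo replicate 1 was highest in Fos, Nr4a1, Atf3 and Ier2. Placebo replicate 3 was highest in Jun and Nr4a3 and, barely above placebo replicate 1, in Jund. Lira replicate 2 was lowest in Junb, Atf3, Jund and Nr4a3.

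**Figure D3:**
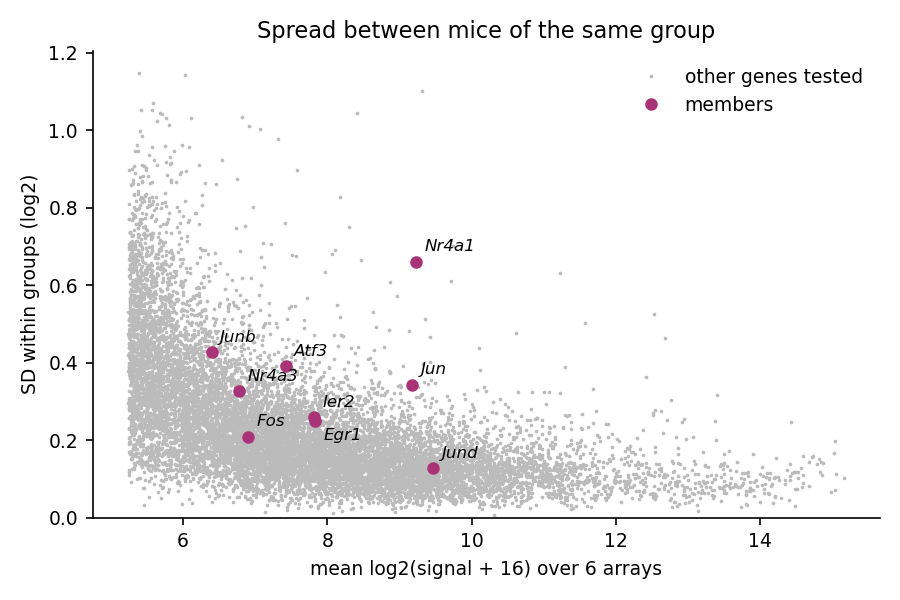
SD between mice of the same group (log2) against the mean of log2(signal + 16) over 6 arrays, with a grey point for each gene tested and the 9 members in purple. Nr4a1 (0.66), Jun (0.34) and Atf3 (0.39) lie near the upper edge of genes of like brightness, and Fos (0.21) and Jund (0.13) lie within the cloud.

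Across the 6 arrays the members did not vary as 1 block. The median Pearson r over the 36 pairs of tested members was 0.18, and it was 0.003 over all 81083745 pairs of genes tested, with quartiles of -0.35 and 0.36. The member median was 0.33 with median centring and 0.13 with quantile normalisation. These shifts were smaller than its SE of 0.20 from leaving out each array in turn. The values over all pairs are for the main scaling only, so the values under the other scalings have nothing to be set beside. Of the member pairs 66.7% were above 0, as were 50.2% of all pairs, and 8.33% of member pairs (3 pairs) were above 0.8, as were 3.10% of all. With the group means removed the median was 0.28. All members on an array share its scaling and its mouse, so r describes these arrays.

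Fos, Jund, Atf3 and Nr4a3 had positive r with each other, from 0.67 to 0.90, though their lowest array was not the same throughout. Fos and Jund had r = 0.90 and a Spearman rho of 0.77 (exact permutation p = 0.014 and 0.10), and r was 0.92 without the 2 arrays farthest from the median of Fos. Jund and Nr4a3 had r = 0.89 and rho = 0.94 (exact permutation p = 0.0042 and 0.017), and 0.72 without 2 arrays chosen in the same way. The latter pair rests on the probe set of Nr4a3 whose second probe set runs the other way. Jund and Atf3 had r = 0.80 and rho = 0.89 (exact permutation p = 0.069 and 0.033), and 0.91 without 2 arrays.

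Jun and Ier2 ran in opposite directions, with r = -0.90 and rho = -0.77 (exact permutation p = 0.021 and 0.10) and r = -0.94 without 2 arrays. Jun and Junb also had a negative r, -0.69 (exact permutation p = 0.13). The Fos and Jun pair, the partners of classical AP-1, had r = -0.28 and rho = -0.37 (exact permutation p = 0.59 and 0.50), and 0.12 without 2 arrays. The receptors Nr4a1 and Nr4a3 had r = 0.18 (exact permutation p = 0.73), and Egr1 had r between -0.44 and 0.32 with every other tested member. After Benjamini-Hochberg adjustment over the 36 pairs the lowest value was 0.15, so no pair passed, and the pairs named here were picked after their values were seen. The tests were two-sided over the 720 orders of 6 arrays.

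**Figure D4:**
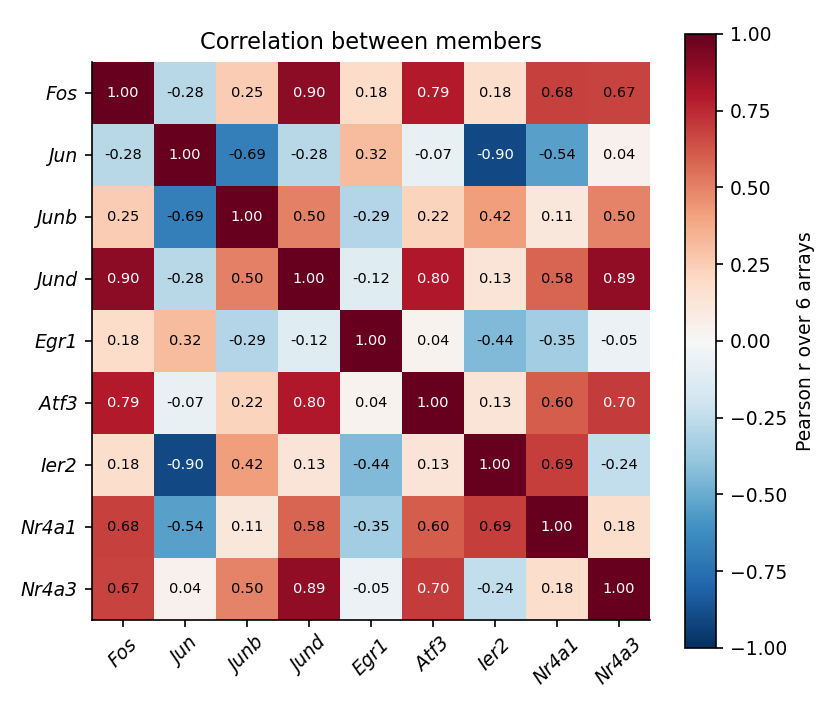
Pearson r over the 6 arrays for each pair of the 9 tested members, from -1 in blue to 1 in red. Fos, Jund, Atf3 and Nr4a3 form a block of r from 0.67 to 0.90, while Jun has r = -0.90 with Ier2 and -0.69 with Junb.

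Averaged after centring each gene, the members stood at 0.27 in placebo replicate 1, -0.04 in replicate 2 and 0.09 in replicate 3 on the log2 scale. The Lira mice stood at 0.09, -0.22 and -0.18. Lira replicate 1 thus matched placebo replicate 3, and the groups overlapped. Taken as medians over the members, the placebo mice stood at 0.14, -0.04 and 0.14 and the Lira mice at 0.10, -0.23 and -0.11. Placebo replicate 1 then no longer stood above replicate 3. Single members followed the average unevenly, from r = 0.93 for Jund to -0.06 for Egr1 and -0.37 for Jun. Each member is itself part of that average, which raises its r, so these values overstate how far it follows the other members. Genes with the pattern most like this average over 6 arrays were Tspan4 (r = 0.98), a tetraspanin of cell membranes, Ccdc149 (0.98), Wdr76 (0.97), Tulp3 (0.97), which takes part in transport into cilia, and Ncdn (0.97). These r describe a ranking over few arrays of the genes tested, with members and uncharacterised transcripts left out. Of the genes ranked, 63 (0.52%) had r above 0.9.

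The other AP-1 factors, from a list of 13 genes of which 9 were tested, had 7 lower and 2 higher means with Lira and a median log2 difference of -0.27, and 0 passed the adjusted threshold in limma. At an unadjusted p under 0.05 there were 2 of 9, both lower, where 6.00% of all genes met that rule. The lists were chosen with earlier results of these data known, so such shares are descriptions. Jdp2, a repressor that pairs with Jun, measured 278, 276 and 238 units with placebo and 188, 217 and 127 with Lira, a difference of -0.56 ± 0.17 (adjusted p = 0.58), and its groups did not overlap. Maff, a small Maf factor without an activation domain, had a difference of -0.52 ± 0.18 (adjusted p = 0.67). Fosl2, the Fos relative known as Fra-2, measured 691, 257 and 186 with placebo and 176, 231 and 190.5 with Lira, so that 1 placebo mouse, the one with the highest Nr4a1, set it apart. Of the Egr and NR4A relatives and their Nab corepressors 4 of 6 were tested, 1 lower and 3 higher, with a median of 0.08 and 0 at either threshold. Nr4a2, the third receptor of the family, measured 69.5, 106 and 106 with placebo and 45.8, 158 and 18.5 with Lira, a spread that spanned its placebo range on both sides. Nab2, a corepressor that Egr1 induces, and Egr3 had differences of 0.19 ± 0.21 and 0.15 ± 0.26.

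Of 37 other immediate early genes 32 were tested, 22 lower and 10 higher, with a median of -0.09. In limma 0 passed the adjusted threshold, and 11 of 32 had an unadjusted p under 0.05, 7 lower and 4 higher, beside the 6.00% of all genes. As this list was chosen with earlier results of these data known, its share is a description and no sign of enrichment. Those with the smallest p were Klf4, a Kruppel-like factor, Cebpd, a leucine zipper factor of the acute phase response, and Sgk1, a kinase induced by glucocorticoids. Their differences were -0.44 ± 0.10, -0.37 ± 0.12 and -0.32 ± 0.10, with adjusted p of 0.29, 0.62 and 0.63. Upstream of the members, 22 of 27 kinases and factors were tested, 11 lower and 11 higher, with a median of 0.004 and 0 past the adjusted threshold. At an unadjusted p under 0.05 there were 2 of 22, Prkaca and Camk2d, both lower. Serum response factor, Srf, differed by 0.02 ± 0.13 and Creb1 by 0.18 ± 0.13. The smallest p were those of Prkaca, the catalytic subunit of protein kinase A, at -0.27 ± 0.10, Camk2d, the main CaM kinase of heart muscle, at -0.31 ± 0.13, and Rps6ka5, the kinase MSK1, at 0.25 ± 0.13, with adjusted p of 0.71, 0.77 and 0.84.

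Downstream, 13 of 17 known AP-1 or Egr1 target genes were tested, 4 lower and 9 higher, with a median of 0.13 and 0 past the adjusted threshold in limma. At an unadjusted p under 0.05 there were 2 lower and 1 higher of the 13, again beside 6.00% of all genes. This list too was chosen with earlier results known, so its share is a description. Ccnd1, the cyclin D1 gene, measured 826, 833 and 815 units with placebo and 358, 508 and 583 with Lira. All Lira mice lay below the narrow placebo range, with a difference of -0.78 ± 0.15 (adjusted p = 0.15). Vegfa, the vascular growth factor, differed by -0.41 ± 0.11 (adjusted p = 0.54). Pdgfb, a platelet-derived growth factor chain and a known Egr1 target, differed by 0.33 ± 0.12 (adjusted p = 0.68), with groups that did not overlap. Many of these targets also answer to other factors.

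**Figure D5:**
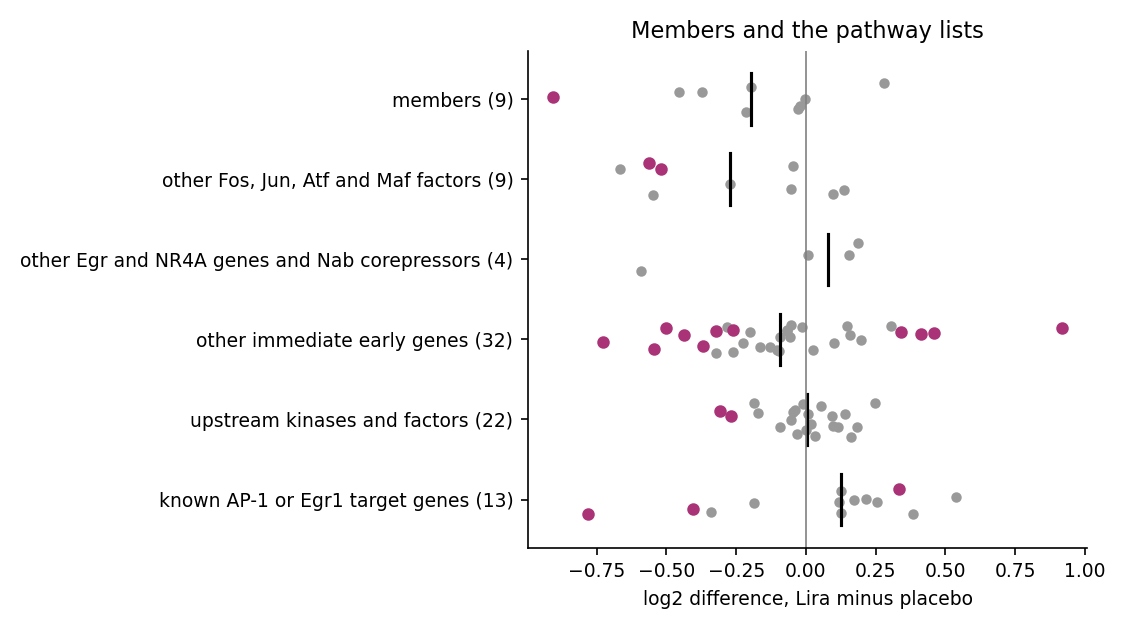
Log2 difference, Lira minus placebo, of each tested gene among the members and the 5 pathway lists, with the number of genes tested in brackets, the median as a black bar and purple for genes whose unadjusted p lies below 0.05. The medians run from -0.27 for the other AP-1 factors to 0.13 for the target genes, and every list spreads to both sides of 0.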

How the data were processed

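RNA of 6 left ventricles was hybridised to Affymetrix mouse arrays, 1 per mouse. The authors deposited 1 linear signal intensity for each probe set and array. Per the submitters' processing notes these come from Affymetrix Expression Console, with version and method not given in the sources used here. A 2% trimmed mean of 150 was found on each array, so only changes relative to other genes can be seen. Arrays carry no read depth, and their number limits precision.

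The 64 control probe sets were set aside. Probe sets with 1 gene in the platform's table (34945) were named, and 99.42% were matched by gene ID to RefSeq symbols of GRCm38.p6. Each gene was read by its brightest probe set on the log2(signal + 16) scale, on which changes of dim genes come out smaller. Genes in the lowest 30% by mean were not tested. The comparison used limma 3.58.1 under R 4.3.3 (lmFit and eBayes, variance trend on, tests two-sided, Benjamini-Hochberg adjustment over 12735 genes) and was tested on simulated data. SE and intervals are the moderated ones.

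Members and lists were chosen with earlier results of these data known. The rule names all members, per list the genes past the adjusted threshold or up to 3 with the smallest p, and the 5 genes most like the members' mean. Srf and Creb1 were named after their values were seen. List genes that were not tested are not analysed here. Alternatives covered scaling, the added constant (4 and 64), the filter, the probe set rule, the prior, weights for arrays, the replicate number as a block, and leaving out each array.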

Additional observations from a re-analysis of the deposited data

How the results depend on the processing

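Under all alternatives run, 0 members passed the adjusted threshold in limma. The lowest adjusted p was 0.060, for Nr4a1 with the replicate number as a block, a fit in which 4 genes passed the adjusted threshold and 2 members (Atf3 and Nr4a1) had an unadjusted p under 0.05, as did 5.97% of all genes. Deviations of mice with the same number correlated at -0.04, 0.09 and -0.09, and those of mice with different numbers at -0.15 to 0.18. With 3 arrays per group these values cannot show whether mice with the same number were handled together. Of 167 member differences under alternatives 11 changed sign. For Junb these were 0.0064 with median centring, 0.015 with a constant of 64 and 0.044 with array weights, and for Nr4a3 0.035 on its second probe set. With single arrays left out the difference ran from -0.24 to 0.32 for Junb, from -0.23 to 0.10 for Ier2 and from -0.13 to 0.20 for Jun, with the other sign without placebo replicates 1 and 2 (Junb and Ier2), Lira replicate 2 (Junb), and placebo replicate 3 and Lira replicate 1 (Jun). Members at an unadjusted p under 0.05 were 2 without a filter (Fosb and Nr4a1; 5.40% of all genes), 2 with array weights (Egr1 and Nr4a1; 7.0%), and 0 without the variance trend (5.39%) or with a robust prior (6.02%). With single arrays left out they were 0 to 4, the 4 (Jund, Atf3, Nr4a1 and Nr4a3) without Lira replicate 1 (5.43% of all genes), and 0 without placebo replicate 1 (6.74%) or Lira replicate 3 (6.08%). Groups did not overlap in 1 member without a filter (Fosb; 10.7% of all genes), in 2 with the mean of probe sets (Jund and Nr4a3; 10.4%), and in 0 to 3 with an array left out (20.1% to 22.7%). Genes past the adjusted threshold were 1 without a filter, 0 with the mean of probe sets and 0 without the variance trend (700 and 687 at an unadjusted p under 0.05), and 1 to 9 with an array left out. The members' median difference ran from -0.29 to -0.11 and their median r from 0.11 to 0.39 with an array left out, the highest r without placebo replicate 3. Dim signals, Fosb above all, could not be told from background.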
